A study of Mus musculus with 9 samples.

Results

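Eukaryotic initiation factor 3 (eIF3) is the largest of the factors that start translation. It binds the small ribosomal subunit, helps to bring mRNA and the initiator tRNA to it, and is built from many different subunits. A core of subunits that carry PCI or MPN domains, shared in architecture with the COP9 signalosome and the proteasome lid, holds further subunits at its periphery, so that the products of genes scattered over the genome meet in 1 particle. The 10 subunit genes described here were chosen by symbol (Eif3a, Eif3b, Eif3c, Eif3d, Eif3e, Eif3f, Eif3h, Eif3i, Eif3k and Eif3l), out of 16399 listed genes, and were set apart by location. In the RefSeq table of GRCm38.p6, Eif3d, Eif3e, Eif3h and Eif3l lie on mouse chromosome 15, and the other 6 lie on chromosomes 4 (Eif3i), 5 (Eif3b), 7 (Eif3c, Eif3f and Eif3k) and 19 (Eif3a).

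Poly(A) RNA from cultured cells was sequenced in 9 libraries. MC38-P is the parental MC38 line, an epithelial colon carcinoma line of the mouse, and carried a GFP-luciferase reporter. MC38-LM3a and MC38-LM3b are liver metastatic derivatives of it, obtained independently at the third round of intrasplenic injection into C57BL/6 mice and recovery of cells from liver lesions, and each line was sampled as 3 biological replicates. All groups therefore share the line and the reporter, and each derivative is a single selected population, so that what belongs to selection in the liver and what belongs to that population cannot be told apart.

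The deposited values are TPM, a measure of transcript abundance that is corrected for transcript length and whose sum is equal in all libraries, so that levels of different genes can be compared within a library. No read counts were used, so the depth behind each value is unknown. Per library, 10875 to 11218 genes reached 1 TPM. Tests were made with limma on the log2(TPM + 1) scale over the 11287 genes that reached 1 TPM in 3 or more libraries. All 10 subunits passed this filter, and none was under 197.74 TPM in any library. "Lower" and "higher" below mean an adjusted p under 0.05. Of the 10 colon epithelium markers, Cdh1, Vil1, Cdx1 and Muc2 were each under 0.1 TPM by group mean, and of the 6 tested, 4 were lower in both derivatives: the chromosome 15 keratins Krt8 (1127 TPM in MC38-P, 806 and 764 TPM in the derivatives) and Krt18 (907, 768 and 726 TPM), Epcam (5.76, 2.05 and 2.21 TPM) and Cdx2 (2.27, 0.63 and 0.41 TPM). Krt19 and Krt20 were higher in MC38-LM3a. Summed hepatocyte markers stayed at or below 0.89 TPM in every library, and of 6 macrophage markers, of which 4 were listed, only Cd68 reached 1 TPM, and it was higher in both derivatives (28.8, 36.6 and 43.4 TPM). Among fibroblast and stellate markers, Col1a1 was lower in both (13.99, 4.07 and 4.30 TPM) and Pdgfrb higher in MC38-LM3b. The part of these marker changes in the results was not tested. Replicate 3 of MC38-P and replicate 3 of MC38-LM3a stood apart from their groups along transcript length: across 11096 genes, their difference from the other replicates had a Spearman correlation with length of -0.62 and 0.64, against -0.01 to 0.02 for the MC38-LM3b replicates. For the subunits whose call changed without either library, and for Eif3k, the values without it are given.

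The promoters of a pair of subunits on chromosome 15 and of a subunit on chromosome 7 are shown because they held the same short match. No RefSeq promoter was found for Eif3e or Eif3h, also on chromosome 15, nor for Eif3i, so these were not searched. RefSeq promoters were found for 7 of the 10 subunits, and the 100 bases before the start are printed 5′ to 3′ for Eif3d (chr15:77970825-77970924, minus strand), Eif3l (chr15:79075123-79075222, plus strand) and Eif3c (chr7:126566367-126566466, minus strand) in GRCm38.p6, with CTTCCGG in capitals.
Eif3d: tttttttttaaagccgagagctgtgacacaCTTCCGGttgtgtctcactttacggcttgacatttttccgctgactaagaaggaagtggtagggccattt
Eif3l: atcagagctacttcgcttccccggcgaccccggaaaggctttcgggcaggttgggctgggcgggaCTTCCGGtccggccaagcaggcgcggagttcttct
Eif3c: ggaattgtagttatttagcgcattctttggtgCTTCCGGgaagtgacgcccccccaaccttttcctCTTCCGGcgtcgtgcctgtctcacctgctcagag
CTTCCGG or its reverse complement CCGGAAG was found in these 3 of the 7 promoters and in 1268 of 27025 promoters of the same length (4.69%). The letters were chosen after the sequences were read, and a match describes these windows only. Eif3d and Eif3l were the subunits with the largest falls in both derivatives, while Eif3c, on chromosome 7, passed the test in neither, but was lower in both after length and GC correction (-0.14, adjusted p = 0.00759, and -0.18, adjusted p = 0.00135).

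The first question was whether subunits of 1 particle held the same transcript levels in the derivatives as in MC38-P. They did not move as 1 block. All 4 subunits encoded on chromosome 15 were lower in MC38-LM3a and in MC38-LM3b than in MC38-P, at 58.5% to 78.1% of the parental mean, whereas of the 6 subunits encoded elsewhere 1 was lower in MC38-LM3a (Eif3b) and 2 were lower in MC38-LM3b (Eif3b and Eif3i), and none was higher in either. Over all tested genes, 13.8% were lower and 14.1% higher in MC38-LM3a, and 11.2% lower and 35.6% higher in MC38-LM3b, shares that turn on the scaling as given below. In RNA from whole cultures, a lower level in every cell and fewer cells with the transcript cannot be told apart. Both comparisons use the same MC38-P libraries, so they are not independent of each other.

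**Figure D1:**
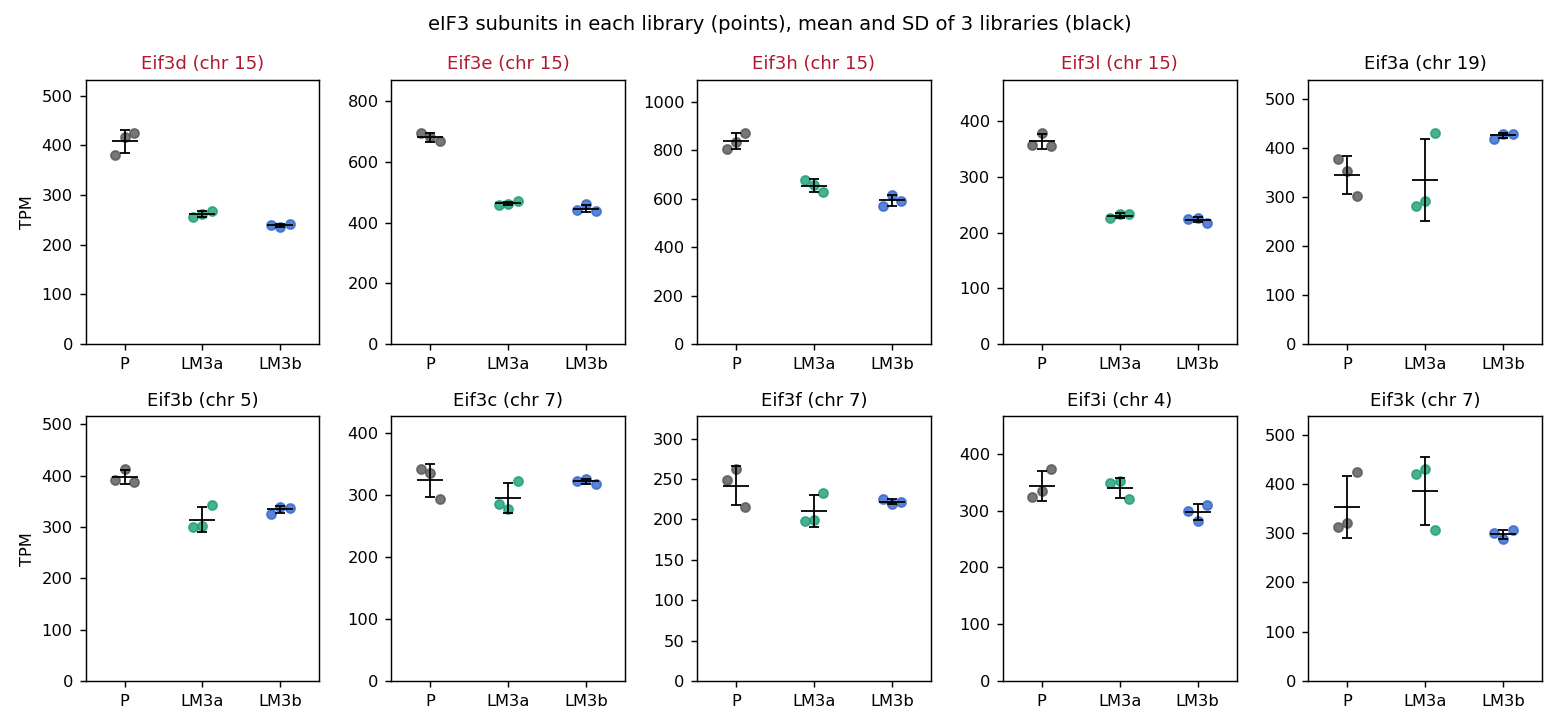
TPM (y axis, from 0) of each of the 10 subunits in the 3 libraries per line (points; P, MC38-P; LM3a, MC38-LM3a; LM3b, MC38-LM3b), with the mean and SD of 3 libraries in black and chromosome 15 subunits titled in red. For Eif3d, Eif3e, Eif3h and Eif3l every derivative library lies below every MC38-P library, whereas the ranges of the lines overlap for Eif3c and Eif3f.

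Eif3d binds mRNA and can contact the cap of selected transcripts. It stood at 382, 417 and 426 TPM in the MC38-P libraries, at 256, 261 and 269 TPM in MC38-LM3a and at 239.6, 235 and 241 TPM in MC38-LM3b. All 6 derivative libraries lay below the lowest MC38-P library, and the derivative means were 64.2% and 58.5% of the parental mean. The log2 fold change was -0.64 (SE 0.0569, adjusted p = 2.5e-05) in MC38-LM3a and -0.77 (SE 0.0569, adjusted p = 4.79e-06) in MC38-LM3b.

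Eif3l, a PCI subunit that pairs with Eif3k at the edge of the core, stood at 357, 379 and 355 TPM in MC38-P. Its values were 226, 233 and 233 TPM in MC38-LM3a and 224, 226 and 218 TPM in MC38-LM3b, again with no overlap between derivative and parental libraries. The log2 fold changes were -0.66 (SE 0.0521, adjusted p = 1.07e-05) and -0.70 (SE 0.0521, adjusted p = 4.79e-06), and the means fell to 63.3% and 61.2% of MC38-P.

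Eif3e, a PCI subunit first known as Int6, the site of a mouse mammary tumour virus insertion, was among the most abundant subunits. It stood at 697, 681 and 668 TPM in MC38-P, at 459, 462 and 471 TPM in MC38-LM3a and at 441, 460.2 and 438 TPM in MC38-LM3b. The gap between the lowest parental and the highest derivative library was wide beside the spread within each line, whose SD was 5.92 to 14.3 TPM. The log2 fold changes were -0.55 (SE 0.0481, adjusted p = 2.1e-05) and -0.61 (SE 0.0481, adjusted p = 8.04e-06).

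Eif3h, an MPN subunit, was the most abundant member and the one with the smallest fall on chromosome 15. It stood at 805, 836 and 873 TPM in MC38-P, at 679, 657 and 626 TPM in MC38-LM3a and at 572, 617 and 591 TPM in MC38-LM3b. Every derivative library was below every parental library. The log2 fold changes were -0.36 (SE 0.0562, adjusted p = 0.000971) and -0.50 (SE 0.0562, adjusted p = 9.01e-05), which left 78.1% and 70.8% of the parental mean.

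Eif3b was the subunit outside chromosome 15 that was lower in both derivatives. It carries an RNA recognition motif and a beta propeller and anchors Eif3g and Eif3i. Its values were 392, 412 and 388 TPM in MC38-P, 299, 301 and 343 TPM in MC38-LM3a and 326, 339 and 337 TPM in MC38-LM3b, with no overlap. The log2 fold changes were -0.34 (SE 0.0633, adjusted p = 0.00259) and -0.25 (SE 0.0633, adjusted p = 0.00906).

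Eif3i, a beta propeller subunit bound to Eif3b, stood at 323, 335 and 373 TPM in MC38-P, at 349, 352 and 320.1 TPM in MC38-LM3a and at 299.95, 282 and 309.8 TPM in MC38-LM3b. Of the MC38-LM3a libraries 2 lay among the parental ones and replicate 3 just below them, and all 3 MC38-LM3b libraries lay below them. The log2 fold change was -0.01 (SE 0.0697, adjusted p = 0.926) in MC38-LM3a and -0.21 (SE 0.0697, adjusted p = 0.0327) in MC38-LM3b. The second call was lost without MC38-P replicate 2 or 3 or MC38-LM3b replicate 1 or 2 and with a replicate block, where the adjusted p was 0.0571 to 0.126 and the log2 fold change -0.22 to -0.15 (-0.15 without MC38-P replicate 3).

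Eif3c, a PCI subunit of the core that binds several other initiation factors, did not pass the test in either derivative. Its values were 341, 336 and 293 TPM in MC38-P, 285, 277 and 323 TPM in MC38-LM3a and 322, 325 and 317 TPM in MC38-LM3b. The groups overlapped, and the 95% confidence intervals of the log2 fold changes were -0.30 to 0.03 and -0.17 to 0.16. The MPN subunit Eif3f, the least abundant of the 10 by mean in each line, overlapped in the same way, at 249, 262 and 215 TPM in MC38-P, 198, 199 and 233 TPM in MC38-LM3a and 225, 219 and 222 TPM in MC38-LM3b. Its log2 fold changes were -0.20 (adjusted p = 0.105) and -0.12 (adjusted p = 0.264).

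Eif3a, the largest subunit and a scaffold of the core, and Eif3k, the PCI partner of Eif3l, had the largest SD of the 10 in MC38-P and MC38-LM3a, though not in MC38-LM3b. Eif3a stood at 378, 354 and 302 TPM in MC38-P, at 282, 292 and 432 TPM in MC38-LM3a and at 419.8, 429 and 429.6 TPM in MC38-LM3b. Eif3k went the other way in the same libraries, with 313, 320.3 and 425 TPM in MC38-P, 421, 429 and 306 TPM in MC38-LM3a and 300.1, 288 and 305 TPM in MC38-LM3b. In both, replicate 3 of MC38-P and of MC38-LM3a stood away from the other replicates of its line. Eif3a had log2 fold changes of -0.06 (adjusted p = 0.794) and 0.31 (adjusted p = 0.0930), and Eif3k of 0.13 (adjusted p = 0.558) and -0.23 (adjusted p = 0.190).

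The position of replicate 3 ran with transcript length across the complex. Over all 14 listed subunits, replicate 3 minus the mean of replicates 1 and 2 on the log2 scale had a Spearman correlation with length of -0.70 in MC38-P and 0.85 in MC38-LM3a, against 0.25 in MC38-LM3b. These points share their libraries, so the correlations are a description and carry no p. The difference was 0.59 for Eif3a and -0.47 for Eif3k in MC38-LM3a, but 0.06 for Eif3d, 0.03 for Eif3e, -0.09 for Eif3h and 0.02 for Eif3l. Without MC38-LM3a replicate 3, the 4 chromosome 15 subunits were all still lower, and 4 of the 6 others were lower in MC38-LM3a, because Eif3a (-0.26, adjusted p = 0.0231), Eif3c (-0.20, adjusted p = 0.0365) and Eif3f (-0.28, adjusted p = 0.0123) joined Eif3b. Of all tested genes, 2612 were lower in that fit, against 1563 with the library. Without that library Eif3a was higher in MC38-LM3b than in MC38-P (0.31, adjusted p = 0.00290), since the fit of all lines shares 1 estimate of the spread. Of all tested genes, 5081 were higher in MC38-LM3b in that fit, against 4013 with the library. Eif3k in MC38-LM3a went from 0.13 to 0.28 (adjusted p = 0.0520) without MC38-LM3a replicate 3 and to 0.27 (adjusted p = 0.133) without MC38-P replicate 3, and in MC38-LM3b from -0.23 to -0.088 (adjusted p = 0.598) without MC38-P replicate 3. Without MC38-P replicate 3, Eif3a had -0.15 and 0.22 and Eif3f -0.20 in MC38-LM3b (adjusted p from 0.0671 to 0.467), and Eif3c had -0.20 (adjusted p = 0.0568) and -0.073 (adjusted p = 0.442). Without MC38-P replicate 3, 2 of the 6 others were lower in MC38-LM3a, Eif3f (-0.28, adjusted p = 0.0211) joining Eif3b, and 1897 of all tested genes were lower.

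Scaling also bears on the 6 subunits elsewhere. Over the tested genes as a whole, the median log2 fold change was 0.00 for MC38-LM3a and 0.21 for MC38-LM3b. Relative to that median, the changes in MC38-LM3b were -0.98 for Eif3d, -0.91 for Eif3l, -0.82 for Eif3e and -0.71 for Eif3h, and -0.46 for Eif3b, -0.44 for Eif3k, -0.42 for Eif3i, -0.33 for Eif3f, -0.21 for Eif3c and 0.10 for Eif3a. Centred on the median of each library, 4 of the 6 subunits elsewhere were lower in MC38-LM3b, Eif3c (-0.23) and Eif3f (-0.34) among them, and 2 in MC38-LM3a. With values corrected for transcript length and GC content in each library, 4 were lower in MC38-LM3b and 3 in MC38-LM3a. The background moved too: of all tested genes, 2981 were lower and 2586 higher in MC38-LM3b after centring, against 1263 and 4013 without it. In MC38-LM3a, 2273 were lower after centring, against 1563 without it. After the length and GC correction 3138 were lower in MC38-LM3b and 2776 in MC38-LM3a. The shift in MC38-LM3b was smaller among genes as abundant as the subunits. These were the 482 other tested genes with a mean of 225 to 695 TPM, a range chosen after seeing the data. Their median log2 fold change was 0.02 in either derivative. Of them, 91 (18.9%) were lower and 111 higher in MC38-LM3a, and 113 (23.4%) lower and 136 higher in MC38-LM3b. All 4 chromosome 15 subunits were lower under all 17 alternative settings in both comparisons, with adjusted p up to 0.0416.

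**Figure D2:**
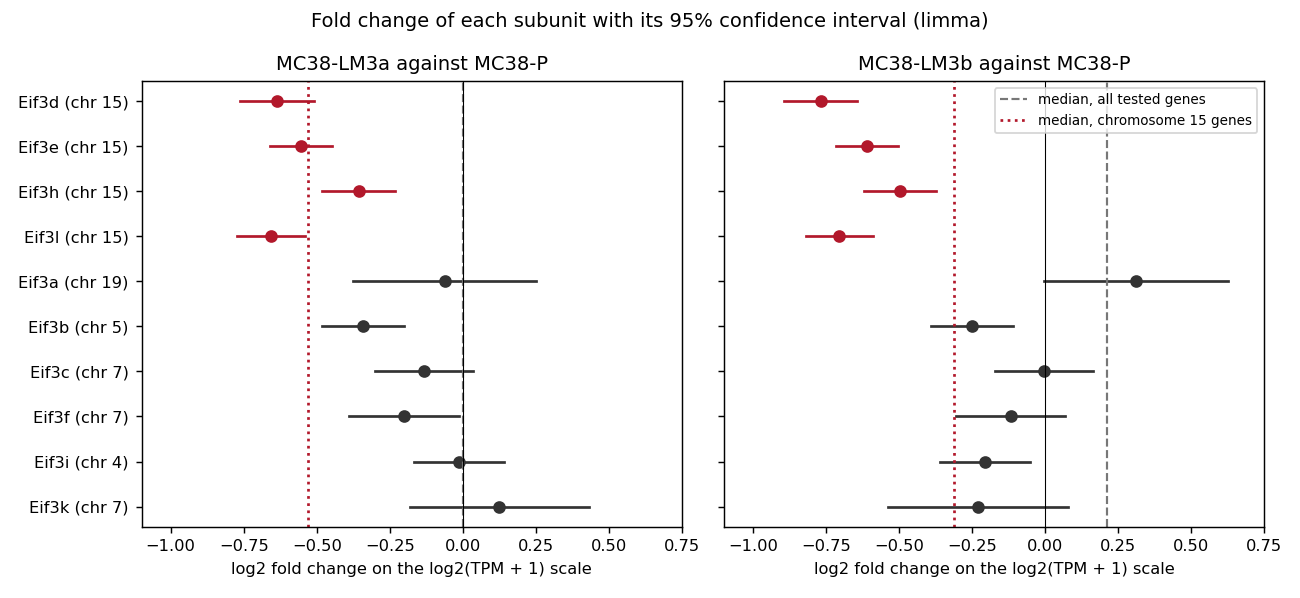
Log2 fold change (x axis, log2(TPM + 1) scale) of each subunit against MC38-P with its 95% confidence interval from limma, for MC38-LM3a (left) and MC38-LM3b (right); red marks chromosome 15 subunits, the dashed line the median of the 11287 tested genes and the dotted line that of the 464 tested chromosome 15 genes. The intervals of Eif3d, Eif3e, Eif3h and Eif3l lie wholly below 0 in both panels, as does that of Eif3b.

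As groups, the chromosome 15 subunits had a median log2 fold change of -0.60 for MC38-LM3a and -0.66 for MC38-LM3b, beside -0.10 and -0.16 for the other subunits. The median of the others was -0.23 in MC38-LM3a without MC38-LM3a replicate 3 and -0.18 without MC38-P replicate 3, and -0.39 in MC38-LM3b after centring. No subunit met both thresholds used in the study (an adjusted p under 0.05 together with a log2 fold change beyond 1 in either direction), which 2.89% and 3.93% of tested genes passed. The 4 chromosome 15 subunits had every derivative library below every MC38-P library in both lines, where 15.9% (MC38-LM3a) and 15.4% (MC38-LM3b) of tested genes did. Of the others, Eif3b was in this state in MC38-LM3a, and Eif3b, Eif3i and Eif3k were in MC38-LM3b. Eif3a had every MC38-LM3b library above every MC38-P library, as did 51.3% of tested genes.

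The make-up of the pool of subunit transcripts shifted accordingly. The 10 subunits summed to 4237 to 4331 TPM in MC38-P, 3454 to 3555 TPM in MC38-LM3a and 3371 to 3423 TPM in MC38-LM3b. The 4 chromosome 15 subunits accounted for most of that decrease, with a sum of 2291 ± 44.7 TPM (SD, n = 3) for MC38-P, of 1611 ± 11.4 TPM for MC38-LM3a and of 1501 ± 33.1 TPM for MC38-LM3b. The other 6 summed to 2004 ± 12.7, 1881 ± 66.7 and 1899 ± 19.1 TPM. Chromosome 15 subunits made up 52.9%, 53.4% and 53.8% of the summed TPM in the MC38-P libraries, 46.9%, 46.6% and 45.0% in MC38-LM3a and 43.8%, 45.0% and 43.7% in MC38-LM3b. In MC38-P they supplied the larger part, and in all 6 derivative libraries the smaller part.

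The order of the levels changed with it. In MC38-P the means ran from Eif3h (838 TPM) and Eif3e (682 TPM) through Eif3d (408 TPM), Eif3b (397 TPM), Eif3l (364 TPM), Eif3k (353 TPM), Eif3a (345 TPM), Eif3i (344 TPM) and Eif3c (323 TPM) to Eif3f (242 TPM), where the libraries of Eif3d and Eif3b overlapped, as did those of each neighbouring pair from Eif3l to Eif3c. Eif3h and Eif3e remained first and second in both derivatives without overlap. Eif3d moved from rank 3 to rank 8 in both derivatives (262 and 239 TPM), and Eif3l from rank 5 to rank 9 (230 and 223 TPM), where its libraries overlapped those of Eif3f (210 and 222 TPM). In MC38-LM3a the neighbours between Eif3k (385 TPM) and Eif3c (295 TPM) overlapped, and in MC38-LM3b only Eif3k and Eif3i (298 and 297 TPM) did besides Eif3l and Eif3f.

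A ratio of 2 subunits within 1 library does not depend on how that library was scaled. Each chromosome 15 subunit was therefore divided by a subunit of like kind from another chromosome, and the 6 derivative libraries were compared with the 3 MC38-P libraries by an exact two-sided permutation test, adjusted over 4 pairs. The pairs were chosen with the fall of the chromosome 15 subunits known, so these p are no independent evidence of it, and the test treats the replicates of both derivatives as 6 exchangeable libraries. Eif3l over its partner Eif3k averaged 1.05 ± 0.190 (SD, n = 3) for the MC38-P libraries, 0.613 ± 0.128 for those of MC38-LM3a and 0.748 ± 0.0362 for those of MC38-LM3b. The log2 ratio differed by -0.63 between derivatives and MC38-P (exact permutation p = 0.0119, adjusted p = 0.0159, lower in 6 of 6 libraries than in any MC38-P library). A ratio of genes of unlike length can still carry the trend along transcript length. In MC38-P this ratio was 1.14, 1.18 and, in replicate 3, 0.835. In MC38-LM3a it was 0.537, 0.541 and, in replicate 3, 0.76, so the gap was narrowest between these replicates 3.

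The PCI pair Eif3e over Eif3c averaged 2.12 ± 0.142 before selection, against 1.58 ± 0.108 for MC38-LM3a and 1.39 ± 0.0227 for MC38-LM3b, and its log2 ratio differed by -0.51. For Eif3d over Eif3b, the pair outside the core, the ratio went from 1.03 ± 0.0632 to 0.836 ± 0.0453 and 0.715 ± 0.0206, a log2 difference of -0.41. Both had the same exact permutation p of 0.0119 (adjusted 0.0159) and 6 of 6 libraries below every MC38-P library. This p is the smallest that 84 splits allow. Without MC38-P replicate 1 or 2, the calls of all 3 pairs were lost (exact permutation, adjusted p of 0.0714 or 0.0952). They were not lost without MC38-P replicate 3, which leaves as many libraries. The differences without replicate 1 and without replicate 2 were -0.56 and -0.54 for Eif3l over Eif3k and -0.54 (both) for Eif3e over Eif3c. For Eif3d over Eif3b they were -0.45 and -0.42.

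The MPN pair Eif3h over Eif3f was the exception. It averaged 3.50 ± 0.488 for MC38-P, 3.14 ± 0.396 for MC38-LM3a and 2.67 ± 0.138 for MC38-LM3b, and the log2 ratio differed by -0.27 (exact permutation p = 0.107, adjusted p = 0.107), with 4 of 6 libraries below every MC38-P library. Without MC38-P replicate 3 the difference was -0.15 (exact permutation, adjusted p = 0.357). With values corrected for length and GC content the difference was -0.24 and passed (exact permutation, adjusted p = 0.0119). Compared with MC38-P one line at a time, 3 libraries against 3 cannot give an exact p below 0.1, and that value was reached by all 4 pairs in MC38-LM3b and by 3 of them in MC38-LM3a, where Eif3h over Eif3f gave p = 0.6 by the exact permutation test.

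**Figure D3:**
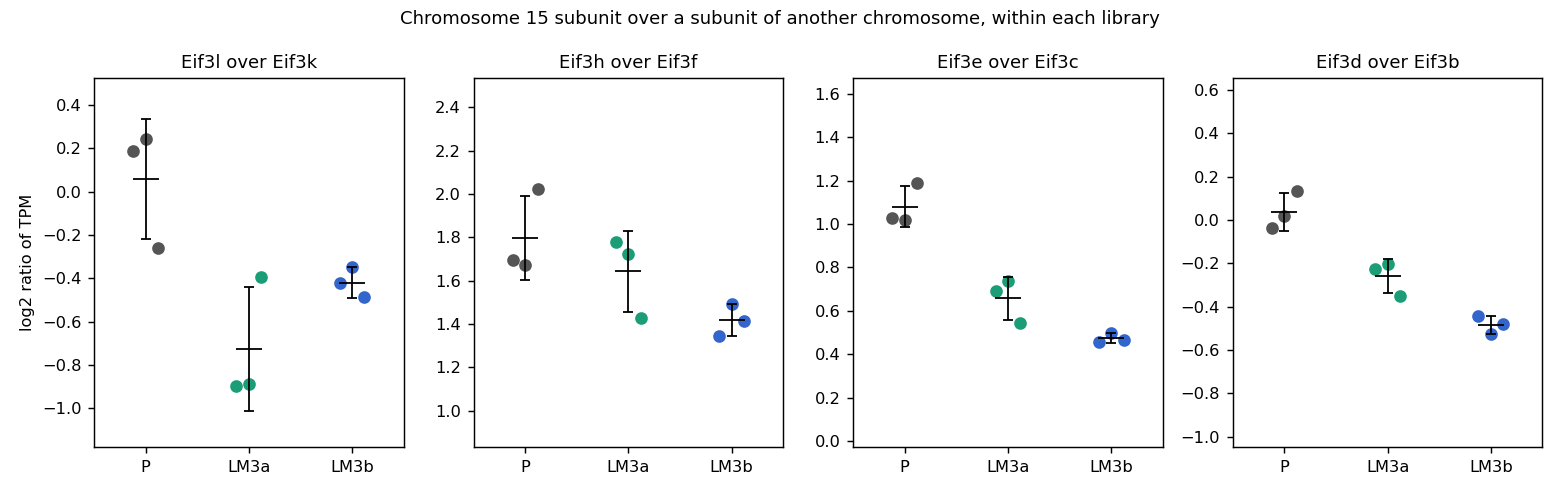
Log2 ratio of TPM (y axis, a span of equal length in each panel) of a chromosome 15 subunit over a subunit encoded elsewhere in each library (points), with the mean and SD of 3 libraries in black. In 3 of the 4 panels all 6 derivative libraries lie below the MC38-P libraries, and for Eif3h over Eif3f 4 of 6 do.

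Every other pairing was computed too. Of all 24 ratios of a chromosome 15 subunit to another subunit, 20 had every MC38-LM3a library and 22 every MC38-LM3b library below every MC38-P library. The mean log2 ratio changed by -0.78 to -0.02 (median -0.47) in MC38-LM3a and by -1.08 to -0.25 (median -0.51) in MC38-LM3b. Ratios between subunits of chromosome 15 changed less, by -0.28 to 0.30 over 6 pairs in MC38-LM3a and by -0.27 to 0.21 in MC38-LM3b, and the widest of these involved Eif3h. Ratios among the 6 subunits elsewhere changed by -0.47 to 0.28 and by -0.25 to 0.56 over 15 pairs.

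The difference between the mean log2(TPM + 1) of the chromosome 15 subunits and that of the others was 0.67, 0.71 and 0.75 in the MC38-P libraries. It was 0.30, 0.30 and 0.20 in MC38-LM3a and 0.14, 0.19 and 0.12 in MC38-LM3b. The lines did not overlap in this value, and MC38-LM3b lay lowest.

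The chromosome as a whole gave the setting of these values. Of the 464 tested genes of chromosome 15, 316 (68.1%) were lower and 15 (3.23%) higher in MC38-LM3a, with a median log2 fold change of -0.53, and 222 (47.8%) were lower and 30 (6.47%) higher in MC38-LM3b, with a median of -0.31. The medians of the other chromosomes lay between -0.02 and 0.10 and between 0.18 and 0.30. In MC38-LM3a, 33.8% of the chromosome 15 genes had a lower fold change than Eif3d, 46.3% than Eif3e, 68.5% than Eif3h and 30.0% than Eif3l, so that all 4 lay within the quartiles of their chromosome. In MC38-LM3b 11.0%, 18.8%, 30.4% and 13.6% of the genes lay below them, which placed Eif3h within the quartiles and the other 3 under the lower one. Among the 27 other chromosome 15 genes within the abundance range of the subunits, 22 were lower in MC38-LM3a and 23 in MC38-LM3b, with medians of -0.48 and -0.54.

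**Figure D4:**
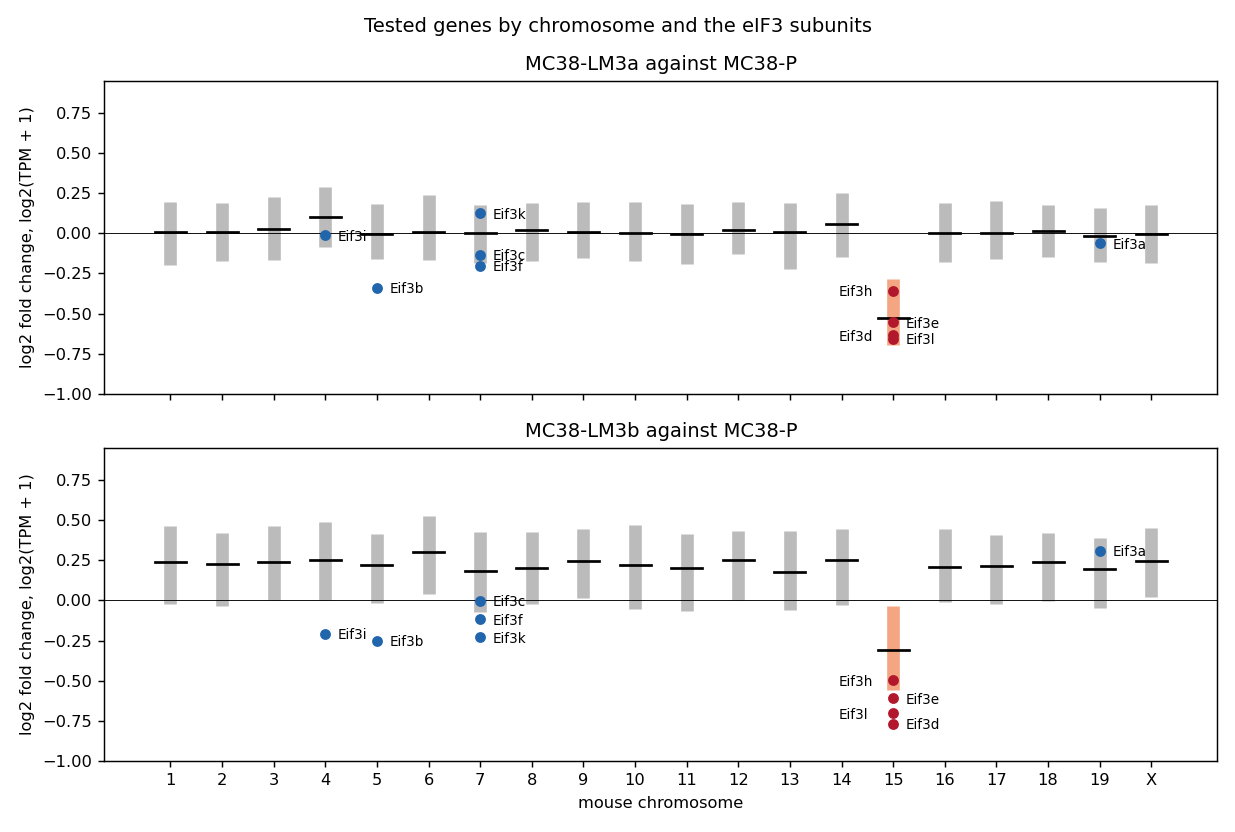
Log2 fold change (y axis, log2(TPM + 1) scale) against MC38-P by mouse chromosome (x axis), with the median of tested genes as a black bar, the quartiles as a thick bar and the subunits as points. Chromosome 15 is the one whose median lies below -0.3 in both panels, and its 4 subunits lie within its quartiles in MC38-LM3a and, apart from Eif3h, below them in MC38-LM3b.

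Genes close to the subunits were compared next, using the order and spacing of genes in the GRCm38.p6 table. The 50 tested genes that start within 1 Mb of a chromosome 15 subunit had a median log2 fold change of -0.50 in MC38-LM3a (33 lower, 1 higher) and -0.28 in MC38-LM3b (23 lower, 2 higher). These values were near those of the chromosome as a whole. Of its 464 tested genes 68.1% and 47.8% were lower, with medians of -0.53 and -0.31. The 156 tested genes within 1 Mb of the other subunits had medians of 0.01 (19 lower, 21 higher) and 0.21 (23 lower, 49 higher). Most of the chromosome 15 neighbours belonged to Eif3l (37) and Eif3d (21), whose windows overlap, and Eif3e and Eif3h had 3 each. Of the 3 next to Eif3e, 1 was lower for MC38-LM3a and 0 for MC38-LM3b, with medians of -0.31 and -0.08 beside -0.55 and -0.61 for Eif3e itself. Within 2 Mb of Eif3e, 4 of 7 were lower for MC38-LM3a and 3 for MC38-LM3b. Of the 3 next to Eif3h, 3 were lower for MC38-LM3a and 2 for MC38-LM3b, with medians of -0.44 and -0.28. Of the 17 neighbours of Eif3b, 0 were lower for MC38-LM3a and 1 for MC38-LM3b.

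The nearest tested genes on either side were Foxred2 and Ift27 for Eif3d, Angpt1 and Emc2 for Eif3e, Trps1 and Utp23 for Eif3h, and Ankrd54 and Micall1 for Eif3l. Ankrd54, next to Eif3l, changed by -0.61 (adjusted p = 0.00023) and -0.64 (adjusted p = 0.000123), close to the values of Eif3l itself. Emc2, a subunit of the endoplasmic reticulum membrane protein complex next to Eif3e, did not pass the test, with -0.18 (adjusted p = 0.0795) and 0.02 (adjusted p = 0.801). Foxred2 fell furthest, from 4.10 ± 0.902 TPM (SD, n = 3) to 0.08 ± 0.03 and 0.0633 ± 0.0153 TPM, which is 1.95% and 1.54% of the parental mean. Its log2 fold changes of -2.23 and -2.25 on the log2(TPM + 1) scale understate this, because the pseudocount of 1 exceeds the derivative values. Ift27, an intraflagellar transport protein, was lower in MC38-LM3b only (-0.55, adjusted p = 0.00586, against -0.35, adjusted p = 0.0678, in MC38-LM3a), and Angpt1, Trps1 and Utp23 in MC38-LM3a only, at -0.58, -0.69 and -0.35. Compared directly, the derivatives did not pass the test for any of these 4 genes (adjusted p from 0.119 to 0.255). Micall1 passed in neither.

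MC38-LM3b was then compared directly with MC38-LM3a. No subunit passed the test (adjusted p from 0.119 to 0.467), where 0.0532% of tested genes (6 of 11287) did and 38.1% had an unadjusted p under 0.05. The chromosome 15 subunits had a median log2 fold change of -0.09 (from -0.14 to -0.05) and the others of 0.09 (from -0.35 to 0.37), beside a median of 0.21 over all tested genes. After centring the medians of the chromosome 15 subunits and of the others were -0.32 and -0.14, and after length and GC correction -0.21 and -0.076, and the sign for the others was thus turned under both. Every MC38-LM3b library lay below every MC38-LM3a library for Eif3d and Eif3h on chromosome 15 and for Eif3i and Eif3k elsewhere, as it did for 3.6% of tested genes. This comparison rests on MC38-LM3a replicate 3. Without it 5874 genes were higher and 477 lower, and of the subunits Eif3h (-0.17), Eif3i (-0.24) and Eif3k (-0.51) were lower and Eif3a (0.57), Eif3b (0.15) and Eif3c (0.19) higher in MC38-LM3b, with adjusted p of 0.00388 to 0.0286. Of the subunits described next, Eif3g (-0.18, adjusted p = 0.0462) was then lower and Eif3j1 (0.19, adjusted p = 0.0284) higher. These calls sorted by transcript length. The subunits then lower had 1101 (Eif3g), 1295 (Eif3h), 1782 (Eif3k) and 2323 (Eif3i) bases. Those then higher had 2945 (Eif3b), 3383 (Eif3c), 5125 (Eif3a) and 5413 (Eif3j1) bases. MC38-LM3a replicates 1 and 2, left in that fit, had Spearman correlations with length of -0.55 and -0.51 against the other replicates of their line. The part of length in these calls was not tested.

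Of the 4 further subunits in the files, all encoded off chromosome 15, Eif3g was lower in MC38-LM3b (-0.35, adjusted p = 0.00231) and had -0.19 (adjusted p = 0.0643) in MC38-LM3a, where it passed after length and GC correction (-0.23, adjusted p = 0.00525) and without MC38-P replicate 2 (-0.26, adjusted p = 0.0238). Eif3g, an RNA recognition motif subunit bound to Eif3b and Eif3i, stood at 294, 262 and 311 TPM in MC38-P, 251, 261 and 246 TPM in MC38-LM3a and 232, 228 and 217 TPM in MC38-LM3b. Eif3j1, which codes for a loosely bound subunit, was lower in both (-0.31, adjusted p = 0.0115, and -0.21, adjusted p = 0.0482), but the call in MC38-LM3b was lost under 10 of 17 alternatives (log2 fold change -0.25 to -0.17, adjusted p up to 0.157; -0.23 without MC38-P replicate 3), among them a pseudocount of 0.1, no filter, a replicate block and each MC38-P or MC38-LM3b replicate left out, and that in MC38-LM3a without MC38-LM3a replicate 1 (adjusted p = 0.0514). Its reads may be shared with the near-identical Eif3j2, which stood at 1.09 to 2.66 TPM, so both values are uncertain. Eif3m, a PCI subunit of the core, passed in neither (-0.03 and -0.09), but was lower in MC38-LM3b after length and GC correction (-0.38, adjusted p = 0.00511). With Eif3g, Eif3j1 and Eif3m counted among the subunits elsewhere, the median of the chromosome 15 subunits differed from theirs by -0.46 and -0.45 on the log2 scale, against -0.50 and -0.49 without them.

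The rest of the initiation machinery was described in the same way. The list of other initiation factors had 39 genes, all tested. It also held Eif4ebp1 and Eif4ebp2, which bind eIF4E and repress initiation, and neither passed the test in either line. Of the 39 genes, 14 were lower and 1 higher in MC38-LM3a (median -0.19) and 12 lower and 3 higher in MC38-LM3b (median -0.10). Of all tested genes, 13.8% and 11.2% were lower and 14.1% and 35.6% higher. The list holds 2 genes of chromosome 15, and both were lower in both lines. Eif4b, a cofactor of the RNA helicase eIF4A, changed by -0.57 (adjusted p = 8.69e-05) and -0.51 (adjusted p = 0.000127). Pabpc1, the cytoplasmic poly(A) binding protein, changed by -0.68 (adjusted p = 0.00184), the largest fall of the list in MC38-LM3a, and -0.44 (adjusted p = 0.0118). Among the 37 genes of the list on other chromosomes, 12 and 10 were lower, with medians of -0.17 and -0.10. The largest fall of the list in MC38-LM3b was that of Eif2b4, a subunit of the exchange factor eIF2B encoded on chromosome 5 (-0.66, adjusted p = 0.000132). The largest rise in both lines was that of Eif4e3, a cap binding protein (0.75, adjusted p = 0.00270, and 1.06, adjusted p = 0.000245).

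The COP9 signalosome, built on the same PCI and MPN domains as the eIF3 core, has no gene on chromosome 15 among its 10 listed members. Of these, 2 were lower in MC38-LM3a, Cops3 (-0.24, adjusted p = 0.0135) and Cops7a (-0.23, adjusted p = 0.0171), and Cops3 alone in MC38-LM3b (-0.18, adjusted p = 0.0299). None was higher, and the medians were -0.11 and -0.12. Of all tested genes 13.8% and 11.2% were lower, near these counts, and 14.1% and 35.6% were higher. The highest values were 0.19 for Cops9 in MC38-LM3a (adjusted p = 0.367) and 0.00 for Cops5 in MC38-LM3b (adjusted p = 0.966).

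**Figure D5:**
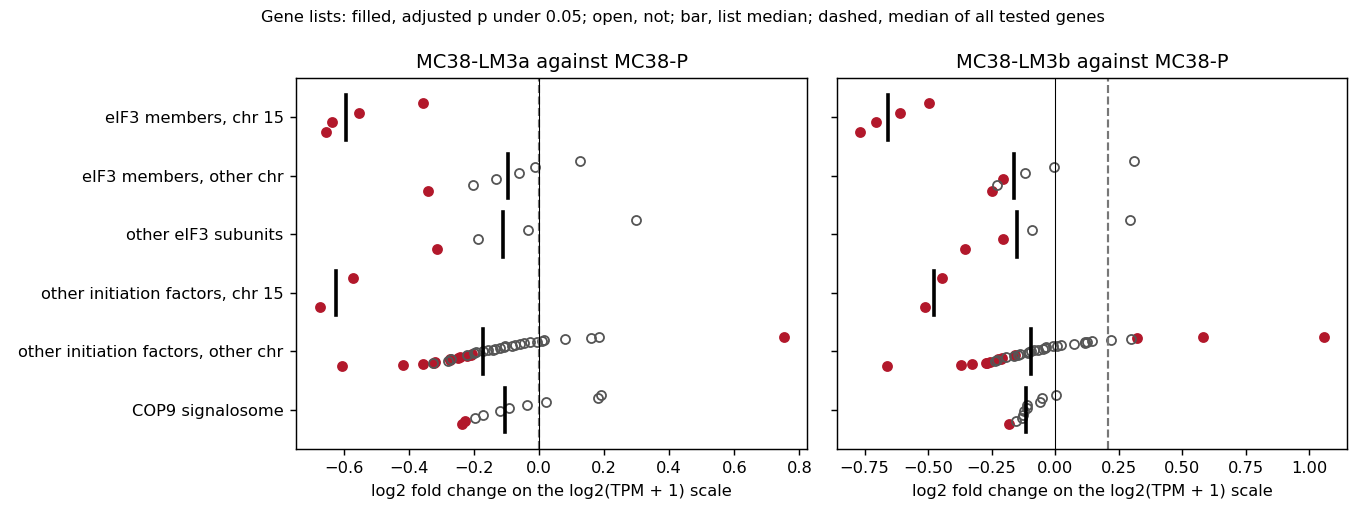
Log2 fold change against MC38-P (x axis, log2(TPM + 1) scale; the ranges of the panels differ) of each gene of 6 lists in MC38-LM3a (left) and MC38-LM3b (right); filled points passed the test, black bars are list medians and the dashed line is the median of all tested genes. The chromosome 15 genes of both the eIF3 members and the other initiation factors are all filled and lie left of their counterparts' medians.

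Genes that followed the contrast between the chromosome 15 subunits and the others were sought over the 9 libraries, after the mean of the other subunits was subtracted from every gene in each library. Among the 5 genes with the highest Pearson r with the mean of the chromosome 15 subunits were Cotl1 (0.995) on chromosome 8, Tuba1b (0.995), an alpha tubulin on chromosome 15, Cct5 (0.994), a subunit of the CCT chaperonin on chromosome 15, and Eno3 (0.994), an enolase on chromosome 11. All points share the subtracted mean, and the values fall by line, so these r are a description and carry no p. Cct5 stood at 931 ± 18.8 TPM (SD, n = 3) before selection, against 578 ± 13.5 TPM for MC38-LM3a and 539 ± 15.1 TPM for MC38-LM3b. Of the 50 genes with the highest r, 17 (34.0%) lay on chromosome 15, which holds 4.13% of the tested genes.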

How the data were processed

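The authors extracted RNA with TRIzol, selected poly(A) RNA and sequenced it on the DNBSEQ platform. They deposited TPM rounded to 2 decimals, and the submitters' processing notes name HISAT and GRCm39. The tool that computed TPM is not given in the sources used here, and the study names DESeq2 for its own tests. Because no counts were used, log2(TPM + 1) was analysed with limma 3.58.1 in R 4.3.3: 1 mean per group over all 9 libraries, trended variance, two-sided tests and Benjamini-Hochberg adjustment over 11287 genes. Ratios of subunits were compared by exact permutation of libraries (scipy 1.17.1). Chromosomes came from RefSeq GRCm38.p6 and transcript length and GC content from GENCODE M21 (98.3% of tested genes). Libraries had no batch labels. The members, lists and pairs were chosen with earlier results of these data known. Named genes were all eIF3 subunits, list members on chromosome 15, the largest rise and fall of each list, the nearest tested neighbours and the 5 genes of highest likeness, of which 1 is not reported here. The script was tested on simulated data. Alternatives changed the pseudocount, filter, libraries fitted, scaling, length and GC correction, replicate block and replicates left out.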

Additional observations from a re-analysis of the deposited data

How the results depend on the processing

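All 4 chromosome 15 subunits were lower in both comparisons with MC38-P under all 17 alternatives; Eif3b was too. The counts for the other 6 moved. In MC38-LM3a 1 was lower, 2 after centring on the median, 3 after length and GC correction, and 1 to 4 with a replicate left out. In MC38-LM3b 2 were lower, 4 after centring or correction, 1 with a replicate block and 1 to 2 with a replicate left out. With the 2 groups alone 1 was higher, and 0 to 1 were with a replicate left out. Of all tested genes, 4752 were higher in MC38-LM3b with the 2 groups alone and 2747 to 5081 with a replicate left out, against 4013 in the main fit. With a replicate block 952 were lower, and 907 to 1555 were with a replicate left out.

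Medians moved with the scaling. In MC38-LM3b that of the chromosome 15 subunits was -0.88 after centring and -0.87 after correction, and that of the others -0.39 and -0.29; their difference was -0.58 after correction and -0.45 with 3 subunits added (-0.46 in MC38-LM3a). With a replicate left out the difference was -0.53 to -0.38 and -0.56 to -0.47, and the median of the others -0.23 to -0.063 and -0.18 to -0.12. Between the derivatives the medians were -0.32 and -0.21 on chromosome 15 and -0.14 and -0.076 elsewhere, the latter reversed from 0.09; their difference was -0.15 after quantile normalization and -0.13 after correction. With a replicate left out, the others' median was 0.049 to 0.16 and the difference -0.24 to -0.14; 0 to 1 chromosome 15 subunits were lower, and of the others 0 to 2 lower and 0 to 3 higher. The cause was not tested.

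Over all tested genes in MC38-LM3a, 2776 were lower after correction and 960 to 2612 with a replicate left out; 1025 were higher with the 2 groups alone, 2428 after quantile normalization and 2900 after correction. In MC38-LM3b 2981, 2767 and 3138 were lower after centring, quantile normalization and correction, and 2586 higher after centring. Between the derivatives, 2 genes were lower: 1 with a pseudocount of 0.1 or a filter of 5 TPM, 0 with the 2 groups alone or a block, 7 after centring, 6 after quantile normalization, 12 after correction and 0 to 477 with a replicate left out. 4 were higher: 1 with that pseudocount or filter, 2 with a block, 10 after correction and 0 to 5874 with a replicate left out.

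Ratios kept their direction. With a replicate left out, Eif3l over Eif3k ranged from -0.79 to -0.54, Eif3e over Eif3c from -0.55 to -0.46 and Eif3d over Eif3b from -0.45 to -0.36; the call was lost without MC38-P replicate 1 or 2 (exact permutation, adjusted p of 0.0714 or 0.0952). Eif3h over Eif3f was -0.24 after correction and -0.33 to -0.15 with a replicate left out. Genes within 2 Mb of the other subunits had a median of -0.018 in MC38-LM3a, against 0.006 within 1 Mb. Same-numbered replicates did not pair, with correlations of deviations between MC38-P and MC38-LM3a of -0.66 to -0.17; the block ended the call of Eif3i in MC38-LM3b (adjusted p = 0.0760). Depth is unknown, so counting error is not given.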
